A study of Mus musculus with 6 samples.

Results

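The RNAs of 8 noncoding mouse genes that carry small nucleolar RNAs (snoRNAs) within their introns, namely Gas5, Zfas1, Snhg1, Snhg3, Snhg5, Snhg6, Snhg8 and Snhg12, were followed in megakaryocyte-erythroid progenitors of the bone marrow. The genes were taken by name, 8 of 55487 in the table of counts, and all 8 were found there. A bulk polyadenylated RNA library was sequenced for each of 6 samples, 3 labelled control and 3 labelled as fasted for 6 h. All 6 came from wild type C57BL/6 mice aged 8 weeks, so genotype, strain and age were common to both groups. The title of the series places the samples in a study of short fasting and the making of red cells, and fasted against control is the one contrast of the design. The labels do not say whether a library holds 1 mouse or a pool, so p-values measure only the spread between these libraries.

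SnoRNAs guide the chemical modification and cutting of ribosomal RNA, and most of them are cut out of the introns of a host gene after splicing. In the noncoding hosts the spliced RNA left over has no long reading frame. Many such RNAs begin with a terminal oligopyrimidine tract (TOP), a cytosine followed by a run of pyrimidines. Such tracts are also known in the mRNAs of ribosomal proteins and translation factors. The growth kinase complex mTORC1 and the protein LARP1 control the translation of TOP mRNAs. Several spliced host RNAs, Gas5 the best known, are short lived because ribosomes meet an early stop codon and nonsense-mediated decay then removes them, and their level can therefore depend on translation as well as on transcription. Gas5 got its name from its build-up in growth-arrested cells.

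The first 30 bases of 1 transcript start of each gene are shown because the TOP letters by which the family is known lie there. Where a gene has starts with C and at least 4 further pyrimidines, the one that most of them share was taken, then the one with the longer run. Snhg1 has no such start, and the start that most of its transcripts share was taken instead. Capitals mark the initial C and the pyrimidines that follow it without a break. Starts are from GENCODE M21 on GRCm38, and a second start of Snhg8 is from RefSeq on the same build.
Gas5, chr1:161035166-161035195, plus strand: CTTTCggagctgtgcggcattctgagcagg
Zfas1, chr2:167063221-167063250, plus strand: CCTTTCgttccggcggctcctagagcgttt
Snhg1, chr19:8723487-8723516, plus strand: CTCatttttccttgttcggggtaagtactc
Snhg3, chr4:132353604-132353633, minus strand: CTCTCTaggcgtcgctctcttggtgtgctt
Snhg5, chr9:88522859-88522888, minus strand: CTTTTacgacggagcctaagatattctttg
Snhg6, chr1:9944089-9944118, minus strand: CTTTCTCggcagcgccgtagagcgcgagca
Snhg8, chr3:123508375-123508404, minus strand: CCCTCgcgcgcaggctcttgggagagcgtc
Snhg8 from RefSeq, chr3:123508307-123508336, minus strand: CTCTTTggctgcgatccgcctacgagtatg
Snhg12, chr4:132308676-132308705, plus strand: CCTTTCTCgcttcatccgcggtccctgtct

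Among the starts printed, the run was longest in Snhg12, at 8 bases, and shortest in Snhg1, at 3. A start of C and at least 4 further pyrimidines, read on the transcript strand, was held by 1 or more transcripts of 7 of the 8 genes, the exception being Snhg1. Of the 77 annotated transcripts of the 8 genes, 13 had such a start (16.9%), against 2865 of all 141767 M21 transcripts (2.02%). The same start was found in at least 1 transcript of 35 of 78 cytosolic ribosomal protein genes. An annotated end can lie some bases from the true end of an RNA, so the letters describe the annotation.

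The RefSeq promoters (GRCm38.p6) were searched for the letters TATA, which read the same on both strands, between 40 and 21 bases before the start. They were present in 4 of 8 promoters of 7 of these genes (Gas5 has 2 promoters in the RefSeq set), in 6 of 67 promoters of ribosomal protein genes (8.96%) and in 1755 of all 32851 promoters (5.34%). The 4 windows that hold them are shown, from 50 bases before the start to 20 bases from it, with the TATA letters in capitals. They can be read beside the starts printed above.
Gas5, chr1:161035116-161035185, plus strand: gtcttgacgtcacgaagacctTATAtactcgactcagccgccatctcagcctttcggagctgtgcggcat
Snhg1, chr19:8723437-8723506, plus strand: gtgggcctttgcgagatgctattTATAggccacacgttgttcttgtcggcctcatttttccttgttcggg
Snhg8, chr3:123508317-123508386, minus strand: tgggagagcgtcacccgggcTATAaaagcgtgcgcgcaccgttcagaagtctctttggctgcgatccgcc
Snhg12, chr4:132308628-132308697, plus strand: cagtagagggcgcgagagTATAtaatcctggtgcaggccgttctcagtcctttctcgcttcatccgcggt

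The TATA letters began 29 bases before the start in Gas5, 27 in Snhg1, 30 in Snhg8 and 32 in Snhg12. In Gas5, Snhg1 and Snhg8 the RefSeq transcript begins with the C of a start printed above, and in Snhg12 it begins 2 bases after that C. The Snhg5 promoter also holds the letters, but not wholly inside the stretch searched.

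Gas5 lies at chr1:161034422-161038539 on the plus strand with 10 small RNA genes inside it, the most of the 8. Snhg1, at chr19:8723475-8726443 on the plus strand, holds 8, and Snhg12, at chr4:132308623-132311024 on the plus strand, holds 5. Zfas1, at chr2:167062934-167065862 on the plus strand, holds 4. Snhg3, at chr4:132348014-132353686, and Snhg5, at chr9:88521050-88522929, hold 2 each on the minus strand. Snhg6, at chr1:9941959-9944118, and Snhg8, at chr3:123507552-123508404, hold 1 each on the minus strand. These 33 small RNA genes include 32 snoRNA genes. Snord80 in Gas5 and Snora16a in Snhg12 are each annotated under 2 identifiers at nearly the same position. Both identifiers are counted here and below. For Zfas1 and Snhg5 the table has another version of the gene than M21, and their M21 positions are given with that remark.

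How reads were assigned where genes overlap bears on every value below. Of 762 genes lying wholly inside exons of another gene on the same strand, 761 had a count of 0 in all 6 libraries (99.9%). Of 437 lying wholly inside exons of a gene on the opposite strand, 434 did (99.3%), against 2.42% of 42894 genes with no overlap. Bases that 2 genes share therefore carried almost no counts, on either strand, and in several hosts they include stretches where a retained-intron transcript runs over a snoRNA. Bases covered by another gene were 17.8% of the exonic length of Gas5, 20.9% of Snhg1, 19.6% of Snhg12, 15.2% of Snhg8 and 11.1% of Snhg6, in Snhg6 all on the opposite strand. In Snhg3, which shares its locus with Rcc1 on the same strand and Gm17300 on the other, they were 86.3%, leaving 135 of 986 bases.

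**Figure D1:**
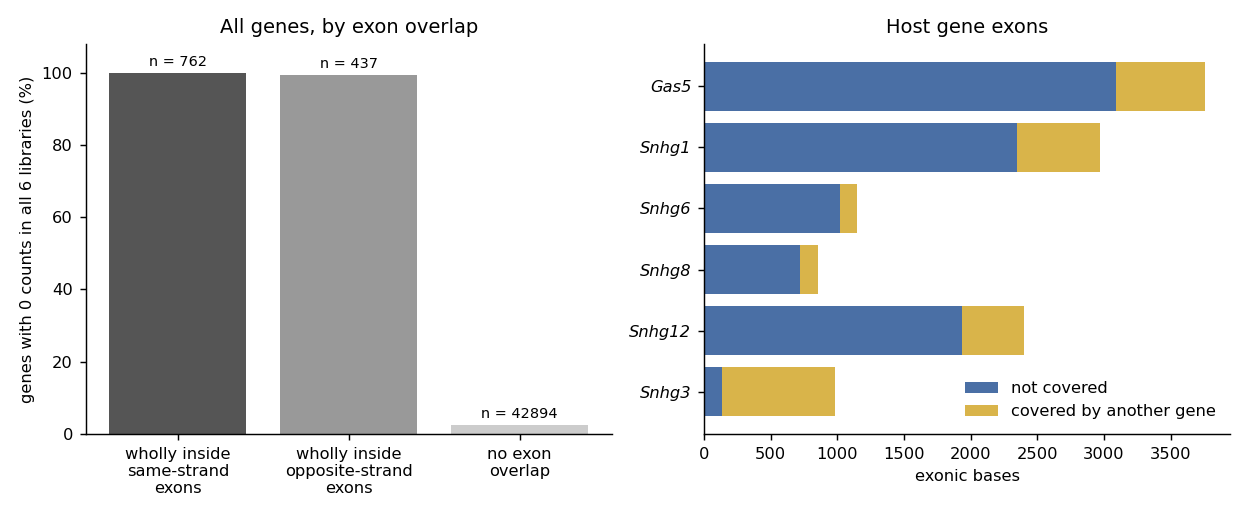
Left, bars give the percent of genes with 0 counts in all 6 libraries by how their exons overlap those of other genes. Right, bars give the exonic bases of the 6 hosts whose version matched M21, split into bases no other gene covers (blue) and bases another gene covers (yellow). Overlapped genes are almost all at 0, and most of Snhg3 is covered.

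The libraries differed in depth and in background along with the groups. Gene counts totalled 22445970 to 30246110 in control and 12797144 to 18225191 in fasted libraries. The background, counts per kilobase over 1466 odorant and vomeronasal receptor genes, which progenitors are not known to use, scaled to the exonic length of all genes, came to 3.90% to 8.58% of counts in control and 11.5% to 14.6% in fasted libraries. A gene is called expressed below where its mean count was at least 5 times that background for its length. Markers of the labelled cell were present, with 11 of 12 megakaryocyte-erythroid genes expressed. In CPM, the counts of a gene over the total of its library times 1000000, granulocyte and monocyte markers summed to 3413 to 17133 in control and 1736 to 4187 in fasted libraries. Immediate early genes, which also answer to cell handling, summed to 2659 to 7624 against 8935 to 9830. Lymphocyte markers summed to 72.4 to 134 against 117 to 255, with 6 of 12 genes expressed. The part of these differences in the results on the hosts was not tested. In bulk samples, fewer cells of a type and less RNA per cell cannot be told apart.

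Gas5 was the most abundant of the hosts, and edgeR called none of the 7 hosts that could be tested different between fasted and control libraries. Per length, Gas5 stood at 146 ± 11.2 RPKM (CPM divided by the exonic length in kilobases, SD, n = 3) in control and 142 ± 12.8 (n = 3) in fasted libraries, and it ranked first in all 6. Snhg6 followed in control at 31.4 ± 8.97 RPKM and Snhg8 at 24.2 ± 7.56. In fasted libraries Snhg8 came second, at 34.6 ± 5.86 RPKM, and Snhg6 next, at 26.0 ± 0.85. Snhg8 was second in control 2 as well and Snhg6 in control 1 and control 3, so their order was not fixed within the control group. The exonic length is merged over all annotated transcripts. It fills all 2969 bases of the Snhg1 locus and all 853 of Snhg8, but 1146 of 2160 in Snhg6. The order between hosts therefore also depends on the annotation, and the size of that part was not tested.

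In the middle of the order, Snhg1 had 19.4 ± 4.24 RPKM in control and 22.2 ± 3.32 in fasted libraries. Snhg5 had 18.9 ± 1.20 and 18.3 ± 1.34, and Zfas1 had 14.2 ± 1.95 and 18.9 ± 4.49. These values used the deposited lengths, 3634 bases for Snhg5 and 1901 for Zfas1, where M21 has 1730 and 2929 exonic bases. The places of Snhg5 and Zfas1 against other hosts therefore depend on the version of the gene, and the size of that part was not tested. Snhg1 and Snhg5 did not differ by more than their spread in control, and Snhg1 lay above Snhg5 in all 3 fasted libraries. Zfas1 lay below both in all 3 control libraries and above Snhg5 in fasted 2 and fasted 3. Snhg12 was seventh in all 6 libraries, with 4.22 ± 0.42 RPKM in control and 5.05 ± 0.93 in fasted libraries. Snhg3 was last in all 6, over a full length that other genes mostly cover. Over only the bases that no other gene covers, Gas5 remained first of the 6 hosts so measured, with 178 ± 13.6 CPM per kilobase in control and 172 ± 15.5 in fasted libraries, and Snhg8 had 28.5 ± 8.92 and 40.8 ± 6.92.

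**Figure D2:**
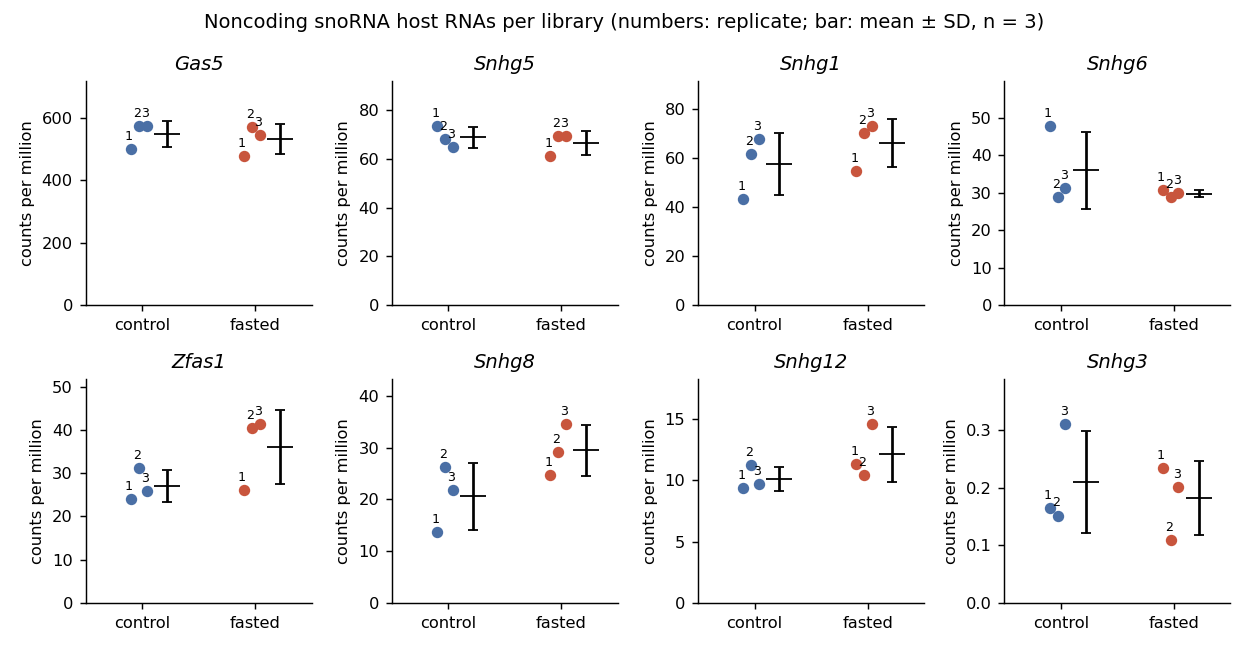
CPM of each of the 8 host genes on axes of their own that start at 0, each point 1 library marked with its replicate number, with the mean ± SD of each group (n = 3) beside the points. In every panel the control and fasted ranges overlap, and control 1 stands apart in Snhg6 and Snhg8.

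Fold changes are given from 2 fits, because the direction of 4 of the 7 tested hosts changed with the scaling between libraries, Zfas1, Snhg1 and Snhg12 with library totals and Snhg8 with RLE factors. The fit of all 36508 genes with enough counts called 1813 at an adjusted p under 0.05 (4.97%), 1393 lower (3.82%) and 420 higher (1.15%) in fasted libraries. Its median log2 fold change among the 10648 expressed genes was -0.50, and the same median was -0.01 with library totals and -0.69 with RLE factors. With library totals 299 were called lower and 4224 higher, so that the split between directions turned with the scaling. The number called also rested on single libraries, being 7 without fasted 3, 105 without fasted 1, 190 without control 2 and 5379 without control 3. The restricted fit scaled and tested expressed genes only. Its median was 0.02 and it called 0 of them (0%), with 2115 at an unadjusted p under 0.05 (19.9%) and 0.0900 as the smallest adjusted p, and it called 3 without control 1 and 3 without control 3. Both fits used edgeR's quasi-likelihood test with Benjamini-Hochberg adjustment over every gene fitted, and values without the word restricted come from the first.

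Of the 7 hosts with enough counts to be tested, edgeR called 0 in the first fit and 0 in the restricted fit, where 0 also had an unadjusted p under 0.05. DESeq2, run on the same genes as the first fit, gave an adjusted p to 18105 of them and called 5660 (31.3%), 5302 of them lower (29.3%). It called 3 of these hosts, all lower, with log2 fold changes of -0.70 for Gas5, -0.73 for Snhg5 and -0.99 for Snhg6, beside -0.69 for the median expressed gene in that fit. All 7 were expressed, and their CPM ranges overlapped between the groups in 7 of 7. The ranges were apart for 27.7% of expressed genes, and with 7 hosts this is not read as a difference from that share. The median log2 fold change of the 7 was -0.26 in the first fit and 0.22 in the restricted one. Zfas1, Snhg1 and Snhg12 turned from negative to positive between the fits.

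Gas5 carries the largest set of box C/D snoRNAs among these hosts. Its level was 502, 575 and 573 CPM in the 3 control libraries and 479, 573 and 545 CPM in the 3 fasted libraries. Fasted 1 was lowest and control 1 next, and the other 4 libraries lay close together, so the groups overlapped. The means were 550.0 ± 41.9 CPM in control and 532 ± 47.9 CPM in fasted libraries (SD, n = 3 each). The restricted edgeR fit gave a fold of 0.988 with a 95% interval of 0.799 to 1.22 (log2 fold change -0.02, SE 0.14, adjusted p = 0.954). In the first fit the log2 fold change was -0.52 (SE 0.22, adjusted p = 0.135 by edgeR), beside -0.50 for the median expressed gene. Gas5 rested on 6134 to 15170 counts in a library, the deepest measurement of the family.

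Snhg5 hosts the paired snoRNAs of the U50 type. It was measured at 73.4, 68.0 and 64.8 CPM in control and 61.0, 69.5 and 69.3 CPM in fasted libraries. Fasted 1 was lowest and control 1 highest, with the other 4 libraries between them. Like Gas5 it had a narrow interval around equality, with a restricted edgeR fold of 0.990 (95% interval 0.808 to 1.21, adjusted p = 0.963). Its log2 fold change in the first fit was -0.53 (SE 0.23, adjusted p = 0.135 by edgeR).

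Snhg8 hosts the single box H/ACA snoRNA Snora24. Its level was 13.6, 26.3 and 21.9 CPM in control and 24.7, 29.1 and 34.7 CPM in fasted libraries. Control 1 stood lowest, while control 2 was above fasted 1, so the groups overlapped. The means of 20.6 ± 6.45 and 29.5 ± 5.00 CPM gave a restricted edgeR fold of 1.46 with a 95% interval of 0.957 to 2.22 (log2 fold change 0.54, SE 0.27, adjusted p = 0.292). In the first fit the log2 fold change was 0.05 (SE 0.26, adjusted p = 0.903 by edgeR). Without control 1 the values of Snhg8 were 0.31 (restricted) and -0.13.

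Zfas1 is transcribed away from the start of Znfx1 and hosts snoRNAs of the Snord12 family. It was measured at 24.0, 31.2 and 25.8 CPM in control and 26.2, 40.4 and 41.5 CPM in fasted libraries. Fasted 2 and fasted 3 lay above every control library, and fasted 1 lay within the control range. The restricted edgeR fold was 1.36 (95% interval 0.963 to 1.93, log2 fold change 0.45, SE 0.22, adjusted p = 0.294). In the first fit the log2 fold change was -0.06 (SE 0.25, adjusted p = 0.890 by edgeR).

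Snhg1, a host of many box C/D snoRNAs of the U22 locus, was measured at 43.5, 61.5 and 67.7 CPM in control and 54.8, 70.2 and 73.1 CPM in fasted libraries. Each group had 1 library well below its other 2, control 1 and fasted 1. The restricted edgeR fold was 1.17 (95% interval 0.847 to 1.61, adjusted p = 0.561), and the log2 fold change was 0.22 there (SE 0.21) and -0.26 in the first fit (SE 0.23, adjusted p = 0.447).

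Snhg12, which hosts box H/ACA snoRNAs and Snord99, was the least abundant of the tested hosts. Its level was 9.39, 11.3 and 9.71 CPM in control and 11.3, 10.4 and 14.6 CPM in fasted libraries. Fasted 3 was highest, fasted 1 and control 2 were nearly level, and fasted 2 lay within the control range. The restricted edgeR fold was 1.22 (95% interval 0.852 to 1.75, adjusted p = 0.505), and in the first fit the log2 fold change was -0.24 (SE 0.27, adjusted p = 0.559).

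Snhg6, whose intron holds Snord87, had the lowest fasted to control ratio of the tested hosts in both fits. It was measured at 47.8, 28.9 and 31.2 CPM in control and 30.6, 28.7 and 29.9 CPM in fasted libraries. Control 1 was high, and the other 5 libraries lay within 28.7 to 31.2 CPM. The restricted edgeR fold was 0.846 (95% interval 0.617 to 1.16, log2 fold change -0.24, SE 0.20, adjusted p = 0.524), and in the first fit the log2 fold change was -0.79 (SE 0.26, adjusted p = 0.0684). Without control 1 these became 0.0033 and -0.43, so that the restricted difference of Snhg6 rested on that library. Without control 3 the first fit called Snhg6 lower (adjusted p = 0.0217 by edgeR). Control 1 had the lowest granulocyte and immediate early sums of the control libraries, and the part of this in its Snhg6 level was not tested.

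Snhg3, which hosts the U17 snoRNAs and lies beside Rcc1, had 5, 4 and 7 counts in control and 3, 2 and 3 counts in fasted libraries, 24 in all. These counts were 0.30 times the background for its full 986 bases, most of which are shared with other genes, and the gene was not tested. The ratio to the background over the 135 bases left was not computed. Over those bases Snhg3 had 1.55 ± 0.66 CPM per kilobase in control and 1.35 ± 0.48 in fasted libraries. With 24 counts over 135 bases, its level was not well measured here.

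**Figure D3:**
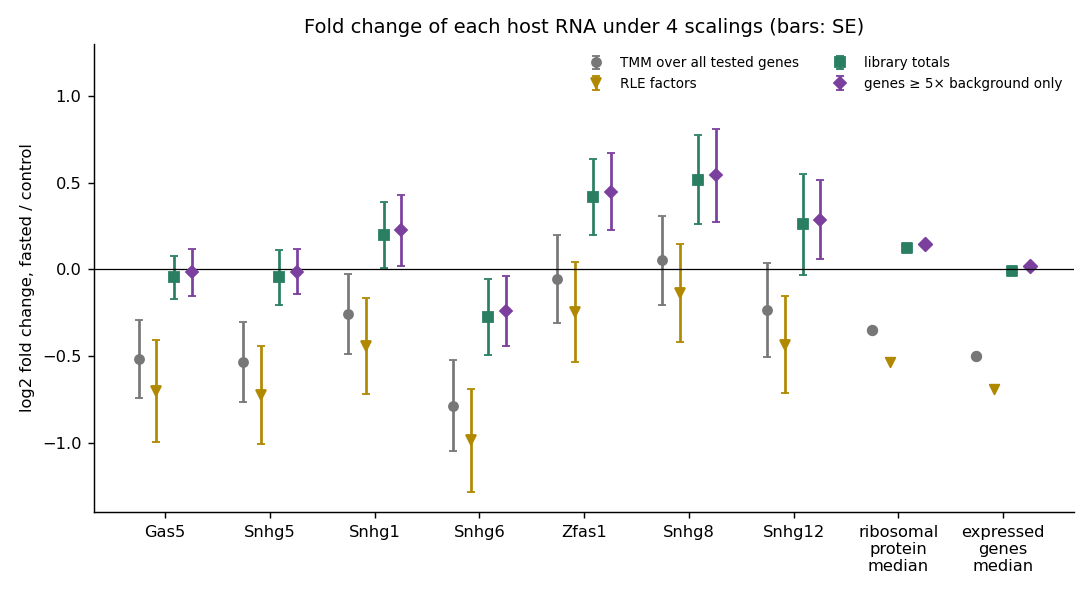
Log2 fold change, fasted over control, of the 7 tested hosts under 4 scalings (points with SE bars), beside the medians of ribosomal protein genes and of expressed genes. Zfas1, Snhg1 and Snhg12 lie below 0 with TMM over all tested genes and RLE factors and above 0 with library totals and in the restricted fit, and the ribosomal protein median does the same.

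A TOP start was annotated in at least 1 transcript of 7 of the 8 hosts and of 35 of 78 ribosomal protein genes. The same held for 931 of the 10415 expressed genes found in M21 (8.94%). A gene with more annotated transcripts has more starts that can meet the rule. The counts of each host were therefore also set against the summed counts of the 78 cytosolic ribosomal protein genes of the same library. This ratio needs no scaling between libraries. The 8 hosts together came to 22.2, 17.4 and 20.1 counts per 1000 ribosomal protein counts in control and 17.2, 18.8 and 19.2 in fasted libraries. Control 1 was highest and fasted 1 lowest, with overlap between the groups. The median ribosomal protein gene had a log2 fold change of -0.35 in the first fit and 0.15 in the restricted one, beside -0.26 and 0.22 for the hosts. In the restricted fit 69 of 77 expressed ribosomal protein genes were above 0, beside 52.3% of all expressed genes, and edgeR called 0 in either fit. This direction rested on control 1, without which 39 of 77 were above 0, with a median of 0.00060 beside 0.054 for the hosts.

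Snhg8 was the one host whose ratio to ribosomal protein counts did not overlap between groups, chosen for mention after its values were seen. It had 0.423, 0.569 and 0.553 counts per 1000 ribosomal protein counts in control and 0.619, 0.666 and 0.822 in fasted libraries. All 3 fasted libraries lay above all 3 control libraries. The fasted mean was 1.36 times the control mean, with a two-sided exact permutation p = 0.1, the smallest that 3 against 3 libraries can give. On this measure the ranges were apart for 1 of the 7 hosts and for 18.9% of expressed genes, with fasted above in 8.04% and below in 10.9%. Gas5 had 15.6, 12.4 and 14.5 counts per 1000 ribosomal protein counts in control and 12.0, 13.1 and 12.9 in fasted libraries (two-sided exact permutation p = 0.3).

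**Figure D4:**
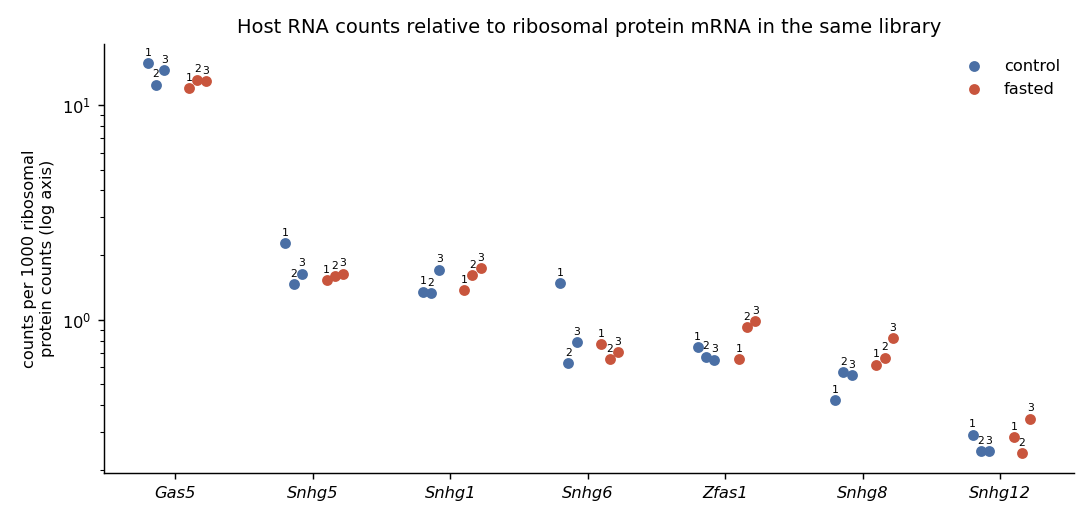
Counts of each of the 7 tested hosts per 1000 counts of ribosomal protein genes in the 6 libraries, each point 1 library marked with its replicate number, on a log axis. Snhg8 alone has all fasted libraries above all control libraries, from 0.619 to 0.822 against 0.423 to 0.569.

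The make-up of the family was also compared within each library. Gas5 made up 70.3%, 71.7% and 72.1% of the summed counts of the 8 hosts in control and 69.7%, 69.8% and 67.4% in fasted libraries, and Snhg8 made up 1.91%, 3.28% and 2.75% against 3.59%, 3.54% and 4.29%. Gas5 was lower and Snhg8 higher in every fasted library than in any control library, each with a two-sided exact permutation p = 0.1. Shares of 1 sum are tied to each other, and Gas5 makes up most of the sum that divides it. Set against the hosts' counts, 19.5% of expressed genes had ranges apart, 11.2% with fasted above and 8.35% with fasted below. Almost all expressed genes lie outside that sum, so these percents are not a like comparison for Gas5. Ratios and shares were tested for all 8 hosts, and with 3 against 3 libraries none could reach a p under 0.05.

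Of the 33 small RNA genes inside the hosts, 31 had 0 counts in all 6 libraries, among them Snord47 in Gas5. A poly(A) library does not take in mature snoRNAs, which lack a poly(A) tail, and the overlap described above leaves out reads there, so a 0 says nothing about the snoRNA. The 2 counted were Snord87, in an intron of Snhg6, and Gm23201, in Zfas1. Both are printed with Snord47 to show the box C (TGATGA) and box D (CTGA) letters in capitals, which were found in that order on the gene strand in 21 of the snoRNA genes.
Snord87, chr1:9942463-9942549, minus strand: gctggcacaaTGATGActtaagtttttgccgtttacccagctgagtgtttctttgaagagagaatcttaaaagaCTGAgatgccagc
Gm23201, chr2:167064998-167065086, plus strand: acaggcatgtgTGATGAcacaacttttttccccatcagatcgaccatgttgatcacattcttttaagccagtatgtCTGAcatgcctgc
Snord47, chr1:161038082-161038158, plus strand: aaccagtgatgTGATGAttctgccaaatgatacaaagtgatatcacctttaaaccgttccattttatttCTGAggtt

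Snord87 had 106, 19 and 22 counts in control and 11, 24 and 10 counts in fasted libraries. Control 1 was high, as it was for the host Snhg6, and the other libraries overlapped. The restricted edgeR log2 fold change of Snord87 was -0.81 (SE 0.63, adjusted p = 0.487). Gm23201 had 26, 10 and 0 counts in control and 5, 12 and 9 in fasted libraries, with no separation. Whether these counts come from host RNA or from the snoRNA was not tested.

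Protein-coding genes start on the opposite strand within 1000 bases of 3 hosts. Zbtb37 starts 427 bases from Gas5, Znfx1 81 bases from Zfas1 and Slc3a2 106 bases from Snhg1. These distances run between the outermost annotated edges of the genes, not from the starts printed above. The annotated loci of Zbtb37 and Gas5 overlap, as do those of Znfx1 and Zfas1. Slc3a2, the heavy chain of amino acid transporters, had 319, 377 and 486 CPM in control and 346, 439 and 285 CPM in fasted libraries, with overlap and a restricted edgeR log2 fold change of -0.11 (SE 0.22, adjusted p = 0.788), beside 0.22 for Snhg1. Znfx1, an RNA helicase of the antiviral response, had 31.4, 26.9 and 21.4 CPM against 34.5, 29.0 and 38.2 CPM, with a restricted log2 fold change of 0.38 (SE 0.19, adjusted p = 0.292), beside 0.45 for Zfas1. Zbtb37 lay at 1.13 times the background and was not compared with Gas5.

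Other genes of the pathway were counted by list. Of 13 further noncoding snoRNA hosts, 10 were found by name and 6 were expressed, with a median restricted log2 fold change of 0.09. The only one of them called in the first fit was Snhg11, higher in fasted libraries, at 3.57, 3.80 and 5.70 CPM in control and 12.3, 8.61 and 16.5 CPM in fasted libraries (log2 fold change 1.03, SE 0.30, adjusted p = 0.0498 by edgeR). Snhg11 lay at 1.28 times the background, which was itself higher in fasted libraries, and its part in this call was not tested. Among nonsense-mediated decay factors, such as Upf1 and the Smg genes, 0 of 14 were called and the median restricted log2 fold change was 0.09.

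The 11 genes of proteins that build snoRNPs, the particles in which snoRNAs work, summed to 3195 to 3655 CPM in control and 2519 to 2986 CPM in fasted libraries, with no overlap. The ranges of 6 of the 11 lay wholly lower in fasted libraries, against 14.6% of expressed genes. In the first fit, where 3.82% of all genes were called lower and the median expressed gene stood at -0.50, edgeR called 3 of the 11 lower and 0 higher, namely Dkc1, the pseudouridine synthase of box H/ACA particles, Nop56, a core protein of box C/D particles, and Nolc1, their nucleolar chaperone. The 3.82% includes genes that were not expressed, whose median was 0.53, and the share among expressed genes alone was not counted. Dkc1 and Nop56 are themselves protein-coding snoRNA hosts, and a further host, Wdr43, was also called lower. Dkc1 had 622, 496 and 560 CPM in control and 349, 418 and 440 CPM in fasted libraries, with a log2 fold change of -0.97 (SE 0.23, adjusted p = 0.0349 by edgeR) and a restricted value of -0.44 (SE 0.14, adjusted p = 0.162). None of these genes was called in the restricted fit, where the median of the 10 expressed snoRNP genes was -0.18 beside 0.22 for the 7 noncoding hosts. Without control 1 these medians were -0.19 and 0.054. The difference between the lists was not tested.

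Among 14 protein-coding snoRNA hosts outside the ribosome, 3 were called lower in the first fit and 0 in the restricted one, with a restricted median of -0.11. Over all genes tested the share called lower in the first fit was 3.82%. Among 17 TOP mRNAs outside the ribosome, 1 was called lower in the first fit, Hnrnpa1, an RNA-binding protein of splicing, and the restricted median was -0.02. Among 12 genes of TOP translation control, 1 was called lower in the first fit, Eif4e, the cap-binding protein, and the restricted median was 0.05. Those 2 counts are 1 gene each and are not read as a result about the lists. The share called lower among expressed genes alone was not counted.

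**Figure D5:**
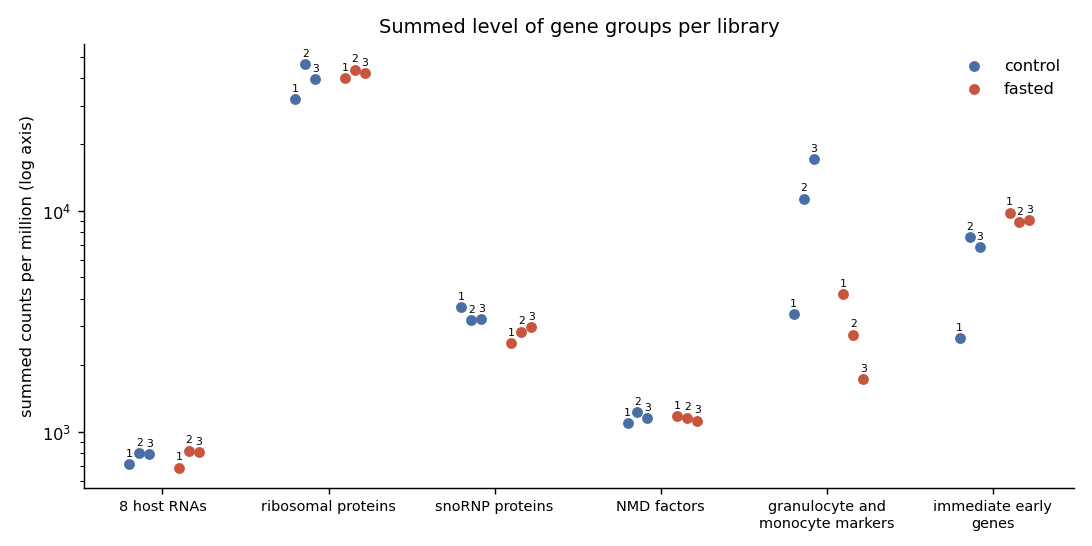
Summed CPM of the 8 hosts and of 5 other gene lists on a log axis, each point 1 library marked with its replicate number. The hosts overlap between groups, at 713 to 802 in control and 688 to 821 in fasted libraries, while the snoRNP proteins and the immediate early genes do not.

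The 5 genes whose TMM-scaled log2 CPM followed the mean of the hosts most closely over the 6 libraries were Pole3, Polr1c, Ibtk, Ska3 and Mrps28, with Pearson's r from 0.988 to 0.995 among 8631 candidates. All genes share the scaling of a library, and the median r over all candidates was 0.71, so a high r over these libraries is common. Over 78 ribosomal protein genes the median r was 0.80.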

How the data were processed

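Raw counts per gene and exonic lengths of 6 libraries were deposited by the authors in 1 table. HISAT2 2.2.1, featureCounts 2.0.1 and the build GRCm38 are named in the submitters' processing notes, and the annotation, strand setting and read filters are not given in the sources used here. The extract protocol describes oligo(dT) selection and random hexamer priming. Of 55487 identifiers, 54349 matched GENCODE M21 with their version, all with the deposited length. Rows without a gene name numbered 0. The host genes and gene lists were chosen with earlier results of these data known.

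CPM were computed from each library's total of gene counts, 12797144 to 30246110, and RPKM from CPM and the deposited length. edgeR 4.0.16 in R 4.3.3 fitted group as the only term (filterByExpr, TMM, robust quasi-likelihood), with calls at an adjusted p under 0.05. The restricted fit kept genes whose mean count was at least 5 times the background, measured on receptor genes, for their length. Intervals (95%) used edgeR's degrees of freedom. A count of 0 allows up to 3 counts, or 0.0992 to 0.234 CPM, and covers counting error only. DESeq2 1.42.0 and limma 3.58.1 were alternatives. On simulated data for this comparison (35594 genes), edgeR recovered 166 of 198 changed genes, DESeq2 163 and limma-voom 164. They also called 11, 22 and 11 unchanged genes. The simulation used a dispersion of 0.1, no group difference in background, and changes larger than that of any host in either fit. The recovery is therefore not the power to find a change in the hosts.

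Genes named were the hosts, up to 3 called genes per list and direction with the smallest p, small RNA genes inside a host, coding genes starting within 1000 bases on the other strand, and the 5 genes most correlated with the hosts. Not every gene this rule admits is described.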

Additional observations from a re-analysis of the deposited data

How the results depend on the processing

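The count of genes called by edgeR was 1813 in the first fit. It was 2973 with RLE factors, 4523 with library totals, 5217 with TMM factors taken from expressed genes, 2849 with no filter beyond 1 count, 5660 with DESeq2 and 0 both in the restricted fit and with the background subtracted. Of the hosts, 0 were called in the first fit, 1 with RLE factors (Snhg6), 1 with no filter (Snhg6) and 3 with DESeq2. Leaving out 1 library gave 7 to 5379 calls in the first fit with 0 to 1 hosts (Snhg6, without control 3), and 0 to 3 calls in the restricted fit with 0 hosts. Some directions turned, none past the threshold. Snhg8 was at -0.14 with RLE factors and -0.14 with DESeq2. With library totals, Zfas1 was at 0.42, Snhg1 at 0.20 and Snhg12 at 0.26, with TMM factors from expressed genes at 0.45, 0.22 and 0.29, in the restricted fit at 0.45, 0.22 and 0.29, and with the background subtracted at 0.50, 0.27 and 0.23. With the background subtracted Gas5 was at 0.055 and Snhg5 at 0.025. Leaving out 1 library gave -0.13 to 0.26 for Snhg8 and -0.33 to 0.13 for Zfas1 in the first fit, and in the restricted fit -0.12 to 0.055 for Gas5, -0.092 to 0.048 for Snhg5 and -0.41 to 0.0033 for Snhg6, with the hosts' median at 0.054 to 0.33. Apart from scaling and left-out libraries, the cause of each turn was not tested. The groups share replicate numbers, but same-numbered libraries deviated together with r of -0.17, 0.14 and -0.33, so the numbers were not taken as pairs. The replicate block gave 146 calls in the first fit and 0 in the restricted one, with 0 hosts in both. The low count of Snhg3, 24 in all, was not examined under any of these settings.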
